A study of Zea mays with 4 samples.

Results

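The maize dwarf genes of the gibberellin pathway described here are the synthesis genes an1, d1 and d3 and the DELLA repressor genes d8 and d9, 5 of the 48174 genes counted. They were chosen by name, as the genes whose NCBI symbol or synonym is one of these names, and each name matched 1 gene. The matches are an1 (GeneID 542253), d3 (GeneID 542580), d8 (GeneID 100191728, listed with the synonyms D8 and DWARF8), d9 (GeneID 100127531) and d1 (GeneID 101202726, listed only under the long form of its name, Dwarf1). The tissue was the terminal 1 mm of the primary and seminal roots of untreated B73 inbred seedlings, 3 days after germination, grown at 28 C in constant dim light of about 500 lux. All samples formed 1 group of 4 biological replicates, so no condition, genotype or root type could be compared, and the number of seedlings in each replicate is not stated. RNA was depleted of ribosomal RNA and sequenced as directional libraries with molecular identifiers.

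Gibberellins are diterpenoid hormones that promote cell division and elongation. Their synthesis starts in the plastid, where ent-copalyl diphosphate synthase (an1) makes the first committed precursor and ent-kaurene synthase cyclises it further. Cytochrome P450 enzymes, ent-kaurenoic acid oxidase (d3) among them, carry it to the first gibberellin, and dioxygenases finish it, with the gibberellin 3-oxidase of d1 forming the bioactive hormone. Loss of an1, d1 or d3 gives dwarf plants that respond to applied gibberellin. DELLA proteins, encoded in maize by the duplicate genes d8 and d9, are GRAS-family nuclear repressors of growth that are degraded when the hormone binds its receptor. Dominant alleles of d8 and d9 give dwarfs that do not respond to the hormone. In Arabidopsis roots, DELLA proteins restrain the size of the meristem.

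Transcripts of the DELLA genes were far more abundant in counts than those of the 3 synthesis genes an1, d1 and d3. These 3 do not cover every step of synthesis, and other genes with synthesis names are given below. d8 averaged 95.2 ± 12.1 CPM (counts of a gene per 1000000 counts of its library; SD, n = 4 here and below) and d9 29.4 ± 3.40 CPM. Of the synthesis genes, d1 averaged 3.80 ± 0.796 CPM, d3 0.235 ± 0.0964 CPM and an1 0.167 ± 0.119 CPM. Summed in each library, d8 and d9 held 24.6 to 37.2 times the counts of the 3 synthesis genes, and d1 supplied 86.3 to 93.1% of the synthesis counts. No transcript lengths were available for the build behind the files, so every comparison between genes below is one of counts, and a longer transcript yields more counts at the same number of molecules. In whole tips, a few cells with much of a transcript and many cells with little of it cannot be told apart.

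**Figure D1:**
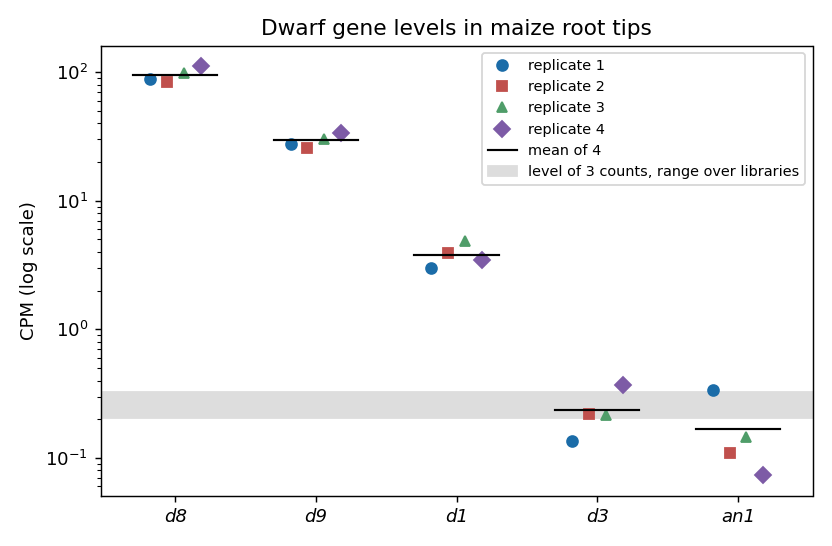
CPM of the 5 dwarf genes (log axis) in each of the 4 root tip libraries, with points for replicates and a black line for the mean. d8 lies between 83.7 and 111 CPM, d9 between 26.0 and 33.7 CPM and d1 between 2.99 and 4.85 CPM, while most points of d3 and an1 lie in or below the grey band that marks the level of 3 counts.

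The libraries held 9168900 to 14728797 counts, and 3 counts, used here as the detection floor, correspond to 0.204 to 0.327 CPM in single libraries and to 0.0584 CPM over all 4. Markers of the root cap and of dividing cells were present. The root cap genes RCP1 and RCP2 summed to 316 to 423 CPM, and PCNA, pcna2, MCM6 and MCM7, genes of dividing cells, to 585 to 630 CPM. The root hair gene rth3 stood at 61.9 to 69.4 CPM. Of 11 photosynthesis genes 6 had no count, and the list summed to 3.60 to 6.22 CPM, of which Cab-m7 alone held 2.72 to 5.13 CPM. Of 44 zein genes of seed storage 43 had no count.

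d8 had the highest level of the 5 in every library. Its counts were 1302, 767, 1350 and 1512 in replicates 1 to 4, or 88.4, 83.7, 97.7 and 111 CPM. Replicate 4 was the highest and replicate 2, the library with the fewest counts, the lowest, a 1.33-fold range. Each gene was tested against the median expressed protein-coding gene, which stood at 13.9 to 15.5 CPM in the single libraries, with expressed meaning that it passed edgeR's filterByExpr. The counts of d8 were 6.49 times those of the median gene, with log2 ratios of 2.58, 2.59, 2.75 and 2.84 in replicates 1 to 4. The fitted log2 ratio was 2.70 ± 0.13 (SD of the libraries), and d8 passed the test for a ratio beyond 2-fold (edgeR quasi-likelihood test, adjusted p = 3.76e-12, above in 4 of 4 libraries). The same call was made for 25.6% of the 21046 genes tested. By mean CPM, 1770 of the 19606 expressed protein-coding genes, or 9.03%, stood higher than d8.

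d9, the duplicate of d8, was the second in level in every library. Its counts were 407, 238, 421 and 459 in replicates 1 to 4, or 27.6, 26.0, 30.5 and 33.7 CPM. The 4 libraries took the same order as for d8, with replicate 4 highest and replicate 2 lowest and a range of 1.30-fold. The median gene was also highest in replicate 4, at 15.5 CPM, and lowest in replicate 2, at 13.9 CPM. No library of d9 reached the lowest library of d8. Relative to the median gene, d9 had a fitted log2 ratio of 1.01 ± 0.11, or 2.01-fold in counts. That lies at the 2-fold bound itself, and d9 was not called above it (edgeR quasi-likelihood test, adjusted p = 1), although all 4 libraries lay above the median gene. Against equality with the median gene rather than a 2-fold difference, d9 passed (edgeR, adjusted p = 2.54e-09), as did 44.2% of the genes tested on that side and 47.1% on the other. Of the expressed protein-coding genes, 30.0% had a higher mean CPM than d9.

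The ratio between the DELLA genes varied less over the libraries than either level did. d8 had 3.20, 3.22, 3.21 and 3.29 times the counts of d9 in replicates 1 to 4, with a mean log2 ratio of 1.69 ± 0.02. The SD of the log2 CPM was 0.18 for d8 and 0.16 for d9. These SDs include any shift of a whole library, which cancels in the ratio. With TMM scaling the SD of the level fell from 12.1 to 9.10 CPM for d8 and from 3.40 to 2.50 CPM for d9. As a share of the counts of both genes, d8 made up 76.2% in replicate 1 (95% Wilson interval 74.1 to 78.1%), 76.3% in replicate 2 (73.6 to 78.8%), 76.2% in replicate 3 (74.2 to 78.2%) and 76.7% in replicate 4 (74.8 to 78.5%). All 4 intervals overlap, and a difference in this share between libraries was not tested. The shares, at 76.2 to 76.7%, lay closer together than the width of any of their intervals. The counts therefore cannot show that the ratio is held this tightly. These intervals, like the others below, cover counting error only. The proteins of d8 and d9 are closely related, and the counting of reads that match both genes is not described, which leaves the split between them uncertain. All counts of the 5 genes were whole numbers, and no other gene of the RefSeq table overlapped any of them.

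d1, which encodes the enzyme of the last activating step, was the only synthesis gene of the 3 to pass the expression filter. It had 44, 36, 67 and 47 counts in replicates 1 to 4, or 2.99, 3.93, 4.85 and 3.45 CPM. Replicate 3 was the highest, and the range was 1.62-fold. This order differs from that of the DELLA genes, but it rests on 36 to 67 counts and was not tested. The fitted log2 ratio of d1 to the median gene was -1.95 ± 0.33, and the single libraries stood at -2.30, -1.82, -1.58 and -2.17. The median gene thus had 3.86 times the counts of d1, and d1 was called below it (edgeR quasi-likelihood test, adjusted p = 3.38e-05, below in 4 of 4 libraries), as were 27.0% of the genes tested. When every gene with a count was tested, which lowers the median gene to 8.03 CPM, d1 had a log2 ratio of -1.08 and was not called (edgeR, adjusted p = 0.758), and d9 was called above (log2 ratio 1.87, adjusted p = 6.66e-14), as were 28.5% of the genes in that test. The call of d1 and the absence of one for d9 therefore depend on which genes define the median. In all, 2 of the 3 dwarf genes that could be tested were called in either direction, against 52.5% of all genes tested.

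**Figure D2:**
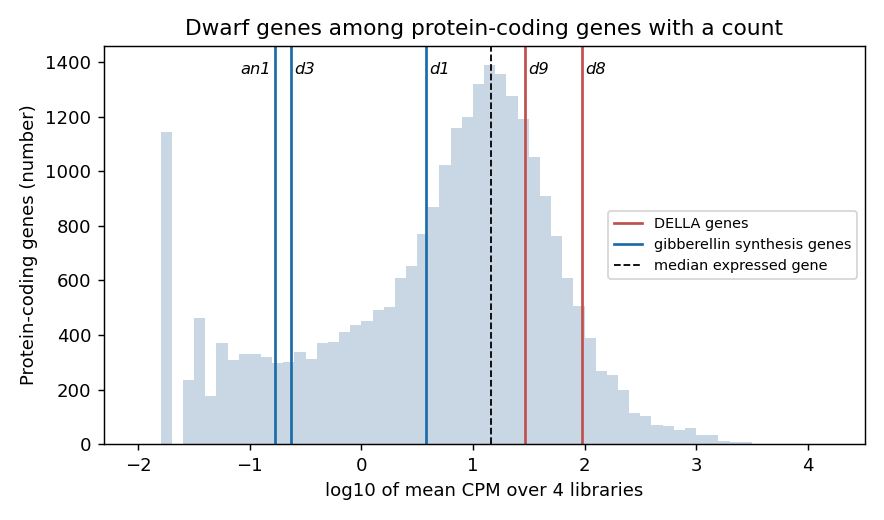
Number of protein-coding genes with at least 1 count (bars) by log10 of their mean CPM over 4 libraries, with the DELLA genes in red, the synthesis genes in blue and the median expressed gene as a dashed line. d8 and d9 lie right of the median gene and d1, d3 and an1 left of it, and the bar at the far left is made of genes with 1 count in a single library.

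d3 and an1, which act earlier in the pathway, were at the edge of detection. d3, the ent-kaurenoic acid oxidase gene, had 2, 2, 3 and 5 counts in replicates 1 to 4, and only replicate 4 exceeded 3 counts. an1, the ent-copalyl diphosphate synthase gene, had 5, 1, 2 and 1 counts, and only replicate 1 exceeded 3. Pooled over the 4 libraries, the 12 counts of d3 gave 0.234 CPM (exact 95% Poisson interval 0.121 to 0.408) and the 9 counts of an1 gave 0.175 CPM (0.0802 to 0.333). Neither passed the expression filter, so neither was tested against the median expressed gene. Pooled, both lay above the floor of 0.0584 CPM over all 4 libraries, though in single libraries mostly at or below 3 counts. For scale, 7736 of the 34018 protein-coding genes, or 22.7%, had no count in any library. Of those 34018 genes, 65.0% had a higher mean CPM than d3 and 66.2% a higher one than an1. When every gene with a count was tested, both were called below the median gene (edgeR, adjusted p = 5.57e-14 for d3 and 4.68e-14 for an1), as were 41.6% of the 30723 genes in that test.

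All 10 pairs of the 5 genes were compared within libraries. In the 6 pairs of a DELLA gene and a synthesis gene, the DELLA gene had the higher count in 4 of 4 libraries. The smallest of these differences was that of d9 and d1, where d9 had 7.86 times the pooled counts (exact 95% interval 6.77 to 9.18), with a mean log2 ratio of 2.97 ± 0.33. For d8 and d1 the pooled ratio was 25.4 (22.0 to 29.5), with a mean log2 ratio of 4.66 ± 0.34. Against d3, the pooled counts were 411 times as many for d8 (235 to 796) and 127 times as many for d9 (72.5 to 246). Against an1, they were 548 times as many for d8 (288 to 1199) and 169 times as many for d9 (89.0 to 371). The wide intervals reflect the 12 and 9 counts of d3 and an1. The values for an1 rest on replicate 1, which holds 5 of its 9 counts. Without that replicate an1 averaged 0.109 CPM, and the pooled ratio to it was 907 for d8 and 279.5 for d9.

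**Figure D3:**
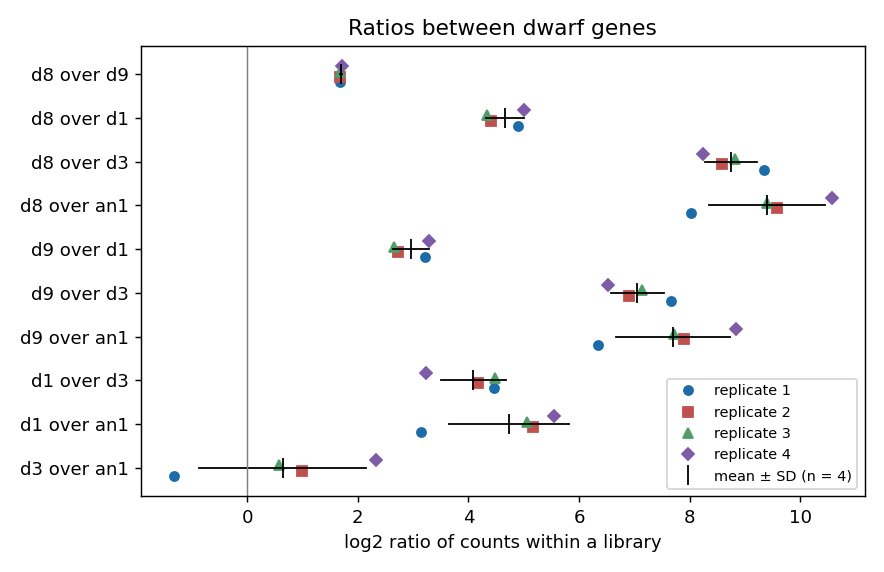
Log2 ratio of counts within each library for the 10 pairs of dwarf genes, with points for the 4 replicates and a bar for the mean ± SD. The points of d8 over d9 fall almost on one another at a mean of 1.69, all ratios of a DELLA gene over a synthesis gene lie above 2.65, and d3 over an1 spans 0.

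Among the synthesis genes, d1 stood above d3 and an1 in 4 of 4 libraries. Its pooled counts were 16.2 times those of d3 (exact 95% interval 9.05 to 31.8) and 21.6 times those of an1 (11.1 to 47.9), or 37.5 times without replicate 1. d3 and an1, neighbours at the bottom of the order, did not differ beyond their spread, with a pooled ratio of 1.33 (0.516 to 3.58). This ratio was 2.5 without replicate 1 and 0.875 without replicate 4, so its direction depends on single libraries. d3 had the higher count in 3 of 4 libraries and an1 in replicate 1. The order of the 5 genes by counts was therefore d8, d9, d1 and then d3 and an1 together. For 9 of the 10 pairs the sign was the same in all libraries, and flipping the signs of the 4 ratios in a two-sided exact permutation test returned p = 0.125 (0.139 after adjustment over 10 pairs), the smallest p that 4 libraries allow, so no pair could pass a threshold of 0.05. For d3 and an1 the same exact permutation test returned p = 0.5.

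Most other genes with a name matched in the search for gibberellin synthesis did not pass the filter. The genes were matched by name alone, and the list is not limited to that pathway, as CPPS2 below shows. Of the 8 genes with such names, the 3 members included, 2 were expressed, against 19606 of all 34018 protein-coding genes. These 2 were d1 and a gene with the synonym CPS1. That gene, LOC103644288 (GeneID 103644288), carries a name used for copalyl diphosphate synthases but no annotated function in the table used, and had 12.02, 11.5, 10.9 and 10.6 CPM in replicates 1 to 4. Its log2 ratio to the median gene was -0.38 ± 0.13 and was not called (edgeR, adjusted p = 1). CPPS2, also called an2, a paralogue of an1 known in maize for the synthesis of kauralexin defence compounds, did not pass the filter. It had 2, 5, 18 and 0 counts in replicates 1 to 4, so that replicate 3 held most of its 25 counts and replicate 4 none. KSL4, a kaurene synthase-like gene, LOC541974, a gene with the synonym KS, and ga3ox2, a gibberellin 3-oxidase gene like d1, had no count in any library. A count of 0 over 4 libraries allows up to 0.0584 CPM. kn1, a homeobox gene whose protein binds a gibberellin-inactivating gene in the maize shoot meristem, had 4, 2, 5 and 4 counts. No gene was found under the names searched for ent-kaurene oxidases, gibberellin 20-oxidases, gibberellin 2-oxidases and gibberellin receptors, and these steps were not analysed here. One gene outside the names searched, LOC778427 (GeneID 778427), carries the synonym GA20 with no annotated function in the table used and was added after its values had been seen. It had 14.5, 16.0, 18.2 and 20.2 CPM in replicates 1 to 4, with a log2 ratio to the median gene of 0.23 ± 0.18, and was not called (edgeR, adjusted p = 1).

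d8 and d9 were also set beside other genes with a GRAS name, the family of transcriptional regulators to which DELLA proteins belong. Of 8 genes named GRAS or SCL with a number, 6 passed the filter, against 19606 of all 34018 protein-coding genes. Of these 6, the test called 1 above the median gene and 1 below it (edgeR, against 25.6% above and 27.0% below over all genes tested). Their median log2 ratio was 0.60, and the median over all genes tested was -0.07. SCL30 was the gene above, at 159 ± 9.59 CPM (log2 ratio 3.45 ± 0.14, adjusted p = 1.79e-14), and scl23 the gene below, at 4.90 ± 0.503 CPM (log2 ratio -1.59 ± 0.20, adjusted p = 0.000655). The symbols SCL28 and SCL30 are also used for SC35-like splicing factors in plants, so their place in the family is uncertain by name. Without them the list held 6 genes, of which 4 passed the filter, with 1 call below and no call above, and their median log2 ratio was 0.03.

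GRAS19 stood at 29.7 ± 0.338 CPM, close to d9, and its 4 libraries ranged from 29.4 to 30.2 CPM. GRAS79 stood at 19.2 ± 2.44 CPM, GRAS76 at 11.6 ± 1.87 CPM and SCL28 at 25.8 ± 0.602 CPM. None of these 4 was called (edgeR, adjusted p = 1 for each). GRAS24 had 3 counts over all libraries and scl1 none. All 4 libraries of d8 lay above every library of the listed genes other than SCL30, while those of d9 overlapped those of GRAS19 and SCL28. By mean CPM, 9.03% of all expressed protein-coding genes stood higher than d8 and 30.0% higher than d9. A place above most genes of a list is therefore not particular to a comparison with this family.

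**Figure D4:**
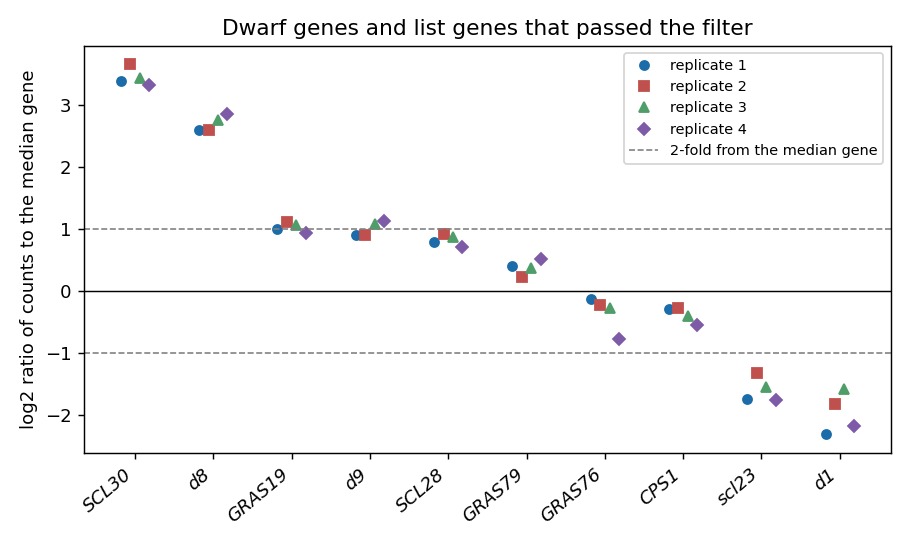
Log2 ratio of counts to the median expressed protein-coding gene in each of the 4 libraries (points) for d8, d9, d1 and the 7 other listed genes that passed the expression filter, with dashed lines at a 2-fold difference. d8 lies between 2.58 and 2.84, d9 on both sides of the upper line and d1 between -2.30 and -1.58.

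For scale, the named genes with the most similar profile over the 4 libraries were found by the Euclidean distance between log2 CPM values, among the 127 expressed protein-coding genes with a symbol of their own. bk4 (85.2 ± 12.02 CPM) and IDP351 (93.4 ± 6.15 CPM) were nearest to d8, at distances of 0.40 and 0.47. RAB2B (27.1 ± 1.47 CPM) and mbd105 (29.5 ± 3.39 CPM) were nearest to d9, at 0.28 and 0.31. aos3 (3.49 ± 0.397 CPM) and mbd123 (3.71 ± 0.183 CPM) were nearest to d1, at 0.39 and 0.42. With 4 libraries of 1 group these distances describe mainly a shared level.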

How the data were processed

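The authors deposited estimated counts per gene by NCBI GeneID, without normalization, for 4 libraries. Per the submitters' processing notes, the tools were STAR 2.7.10b, HTSeq, UMI-tools, SAMtools, deepTools and Trimmomatic (0.36 and 0.39). Settings, genome build, strand setting and any collapsing of molecular identifiers are not given in the sources used. A further table with 5 value columns that match no sample was not used. Values were rounded to whole numbers (3062 genes had a fraction, tolerance 1e-06). Names came from RefSeq for Zm-B73-REFERENCE-NAM-5.0 (48127 of 48174 GeneIDs matched), used for names, gene type and overlap only. The gene type set which genes counted as protein-coding for the median gene, the shares of genes standing higher and the nearest profiles.

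Genes passing filterByExpr (minimum count 10, minimum total 15) were fitted in edgeR 4.0.16 with an intercept-only quasi-likelihood model, whose offset was, in each library, the median expressed protein-coding gene. The test was against a 2-fold difference, Benjamini-Hochberg adjusted over all genes at 0.05. The procedure was also run on counts simulated from a negative binomial model with the same dispersion (its measure of variation) for every gene. That run cannot show how the test behaves under the gene-by-gene variation of these data. A correction for coding length had been planned and could not be made, because no lengths or sequences were available. Replicates are biological per the labels. By the naming rule, the genes named were the members, all expressed genes of the gibberellin and GRAS name lists, and the 2 nearest profiles per expressed member. The unexpressed genes of these lists, the tissue markers and the gene with the synonym GA20 are named in addition. The members and lists were chosen with earlier results of these data known.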

Additional observations from a re-analysis of the deposited data

Results flagged for a closer look

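Of 25 sets of 4 values checked (levels of the listed genes and ratios between the dwarf genes), 1 held a library far from the others. SCL30 stood at 173 CPM in replicate 2, the library with the fewest counts, against 153, 155 and 155 CPM in replicates 1, 3 and 4, a gap of 0.861 of the whole range, past Dixon's critical value for 4 samples. Chance alone marks about 1 in 20 such sets. None of the dwarf genes' levels or ratios was marked, the widest gap being that of d1 over an1 at 0.798.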

How the results depend on the processing

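Of 230 values recomputed under the alternatives, 209 were labelled as unchanged. Counts of genes had to stay within a fixed factor of the main count. Ratios to the median gene had to keep their direction and their side of the threshold, and pair ratios their sign only. Levels had to move by less than the SD between libraries. Many of the 209 could not have come out otherwise. Leaving out a replicate cannot move a mean level by its SD. A pair with the same sign in every library keeps it without a replicate or with an equal offset on both counts. Testing every gene with a count gave 8744 genes above and 12774 below the median gene, against 5384 and 5675, and 2 dwarf genes above (d8 and d9) and 2 below (d3 and an1). There d1 lost its call (log2 ratio -1.08), d9 gained one (1.87), and CPS1 (0.49) and GRAS76 (0.54) changed sign without being called, because the median gene is lower. Without the 2-fold bound, 9312 genes lay above and 9916 below, and 2 dwarf genes lay above, d9 (1.01) being the added one. The call of d8 held with DESeq2, limma-voom, the mean gene as reference and whole values only, and so did that of d1.

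Leaving out 1 replicate at a time gave 5203 to 5464 genes above and 5439 to 5829 below, log2 ratios of 2.66 to 2.77 for d8, 0.98 to 1.07 for d9 and -2.10 to -1.84 for d1, and a log2 ratio of 1.68 to 1.70 for d8 over d9. The log2 ratio of d3 over an1 ran from 0.09 to 1.30. Without replicate 1, pooled ratios to an1 (an alternative added after the values were seen) moved by over 1.5 times, to 907 for d8, 279.5 for d9, 37.5 for d1 and 2.5 for d3, and without replicate 4 that of d3 fell below 1, to 0.875. TMM and DESeq2 scaling moved no level of the 5 genes beyond its SD. No paired analysis was possible because the samples form 1 group and no replicate number is shared between groups; the ratios above pair genes within a library, not samples. The alternative with coding lengths was not run. Depth limits d3 and an1, whose order cannot be told at 12 and 9 counts.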
